A study of Mus musculus with 6 samples.

Results

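The genes of interleukins and of their receptors were examined in spleen RNA of NOD.B10 and BL/10 mice. They were taken as the genes whose symbol starts with Il and a digit, after the gene identifiers of the count table had been matched to mouse symbols. That pattern matched 83 genes, and 5 of them (Il2, Il21, Il2ra, Il7r and Il1b) were left out, so that 78 of the 47729 genes of the table were members. They hold ligands, receptor chains, soluble or signalling-deficient inhibitors, an enzyme (Il4i1) and a noncoding RNA (Il1bos).

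The study sequenced spleen RNA of 3 NOD.B10 females, an inbred mouse model of primary Sjögren's syndrome (pSS), and of 3 females of the healthy control strain BL/10 (C57BL/10). All 3 NOD.B10 libraries and BL/10 replicate 1 were labelled 26 weeks of age, whereas BL/10 replicates 2 and 3 were labelled 36 weeks, although the protocol text calls the controls age-matched. No animal received a treatment, and each library is described as a separate biological replicate. The strains differ across the genome and not at a single locus.

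The labels of these samples contradict each other. Each of the 6 samples carries one strain in its description and the other in its title and strain field. The grouping used here follows the descriptions, since they carry the same strain as the column names of the count table. Under the titles every direction given here would be reversed. For BL/10 replicate 3 the description and the column name share the library number and the strain but differ in the rest.

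Interleukins are secreted messengers between leukocytes and between leukocytes and stromal cells. Most bind a ligand-specific receptor chain that pairs with a chain shared by several receptors, such as the common gamma chain, gp130 or the IL-1 receptor accessory protein, and many of these receptors signal through JAK kinases and STAT factors, while receptors of the IL-1 and IL-17 families use their own adaptors. In the spleen, the T cell zone, the B cell follicles and the myeloid cells of the red pulp and marginal zone all make and read these signals.

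The libraries held between 15662712 and 18298451 counted reads, so that a floor of 3 counts lay between 0.163 and 0.201 CPM, which is the read count scaled to a common library size by the trimmed mean of M-values (TMM). Replicates of a strain differed by more than sampling noise, with chi-square values per degree of freedom of 13.5 to 30.0 in NOD.B10 and 19.9 to 82.6 in BL/10, so no library was counted as a duplicate. Splenic B cell and T cell markers were present in every library. The 6 listed genes of pancreatic acinar cells summed to 8954 CPM in BL/10 replicate 1, 1347 in replicate 2 and 98.0 in replicate 3, against 21.2 to 30.4 in NOD.B10.

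Of the 78 members, 48 had enough counts to be tested, and 12 of these were called. A call is a Benjamini-Hochberg adjusted p under 0.05 from edgeR's quasi-likelihood test, which was fitted and adjusted over all 15330 genes with enough counts. That is 25% of the tested members, beside 17.3% of all tested genes. Higher levels in NOD.B10 were called for 9 members (Il13ra2, Il27ra, Il12rb2, Il7, Il4ra, Il6st, Il6ra, Il16 and Il17ra), where the background of calls in this direction was 9.11% of all tested genes. Lower levels were called for Il12b, Il15 and Il1rl1, beside a background of 8.22%. The libraries of the strains did not overlap for 22 of the 48 tested members (45.8%), compared with 38% of all tested genes. On the log2 scale the tested members had a median fold change of 0.04, and over the whole table of tested genes it was 0.00.

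By role, calls were made for 4 of 12 tested ligands (Il7 and Il16 higher, Il12b and Il15 lower), 7 of 30 tested receptor chains (6 higher and Il1rl1 lower) and 1 of 5 tested inhibitors (Il13ra2, higher). By family, 5 of 9 tested members of the IL-6 and IL-12 group were called, 4 of 11 of the common gamma chain and IL-4/IL-13 group, 1 of 13 of the IL-1 group, 1 of 5 of the IL-17 group, 1 of 3 other members, and none of the 5 of the IL-10 group or the 2 of the IL-3/IL-5 group, beside 17.3% of all tested genes. No test compared these groups with each other.

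**Figure D1:**
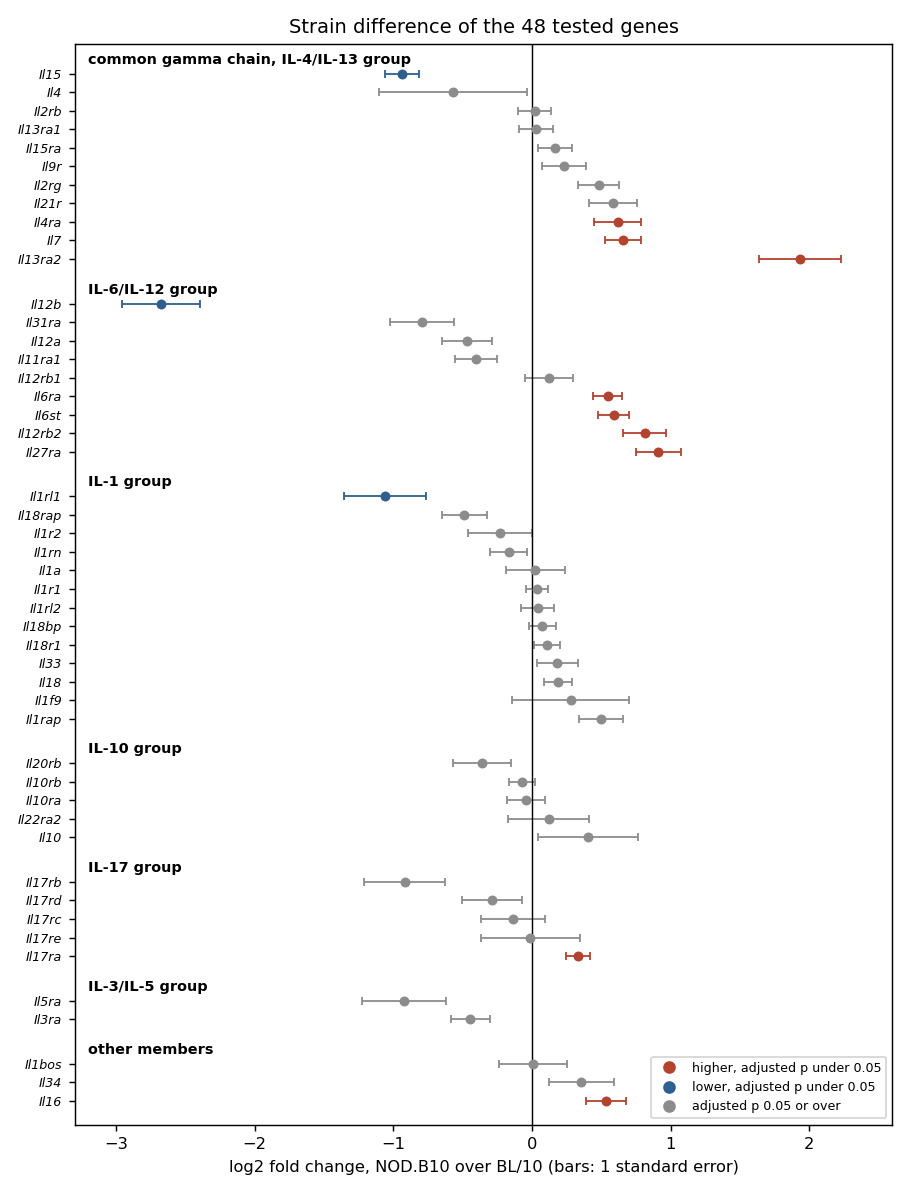
Fold changes of the 48 tested members on a log2 scale (x axis, NOD.B10 over BL/10), grouped by family, with bars of 1 standard error from edgeR's quasi-likelihood fit; red and blue mark higher and lower calls at an adjusted p under 0.05 and grey the others. Il12b at -2.68 and Il13ra2 at 1.93 lie farthest from 0, and in the IL-1 group Il1rl1 is the only coloured point.

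Il12b showed the largest difference of any tested member. It encodes p40, the subunit that IL-12 and IL-23 share, and is made by activated dendritic cells and macrophages. In NOD.B10 it was counted at 20, 14 and 11 reads, or 1.20, 0.860 and 0.618 CPM, and in BL/10 at 120, 92 and 79 reads, or 6.52, 6.17 and 4.49 CPM. Every BL/10 library thus lay above every NOD.B10 library. The mean was 0.891 ± 0.290 CPM in NOD.B10 and 5.73 ± 1.08 CPM in BL/10 (SD, n = 3 each), a level 6.40-fold lower in NOD.B10 (log2 fold change -2.68, SE 0.28, adjusted p = 0.000925, edgeR's quasi-likelihood test). The gene (ENSMUSG00000004296) lies at chr11:44400063-44414033 of GRCm38.

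Promoter windows are shown for Il12b and Il13ra2, which had the largest fold changes in either direction, and for Il12rb2, the called chain of the receptor that IL-12 binds. Each window spans 250 bases before to 50 bases after the annotated start, on the strand of the gene, from RefSeq for GRCm38.p6. Capitals mark a motif match, as described after the windows. The windows lie at chr11:44399813-44400112 on the plus strand (Il12b), chr6:67376139-67376438 on the minus strand (Il12rb2) and chrX:147429143-147429442 on the minus strand (Il13ra2).
Il12b: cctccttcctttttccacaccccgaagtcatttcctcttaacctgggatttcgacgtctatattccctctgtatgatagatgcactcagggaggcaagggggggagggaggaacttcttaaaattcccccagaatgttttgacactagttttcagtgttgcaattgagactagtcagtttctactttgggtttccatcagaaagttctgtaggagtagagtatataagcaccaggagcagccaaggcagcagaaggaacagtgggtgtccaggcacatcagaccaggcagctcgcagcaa
Il12rb2: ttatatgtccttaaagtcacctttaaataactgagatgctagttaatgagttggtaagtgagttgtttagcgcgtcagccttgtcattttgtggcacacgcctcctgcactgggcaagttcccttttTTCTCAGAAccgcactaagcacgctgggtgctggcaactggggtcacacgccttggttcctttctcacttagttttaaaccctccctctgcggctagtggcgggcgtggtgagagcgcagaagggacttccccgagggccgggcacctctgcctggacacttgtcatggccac
Il13ra2: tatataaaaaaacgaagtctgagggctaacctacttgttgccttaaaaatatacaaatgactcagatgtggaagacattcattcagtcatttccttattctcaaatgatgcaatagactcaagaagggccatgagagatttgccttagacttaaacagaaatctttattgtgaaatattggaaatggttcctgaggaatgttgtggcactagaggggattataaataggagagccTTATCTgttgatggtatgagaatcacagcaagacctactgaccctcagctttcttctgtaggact

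The table of windows held 61 of the members and 8 of the 12 called ones, with 11 windows for these 8. They were searched on both strands for TTCNNNGAA (STAT), GAAANNGAA (interferon response), GGGANNTTC (NF-kB) and AGATAA, the letters of the GATA factors, and matches of different motifs may overlap. The Il12rb2 window held TTCTCAGAA, a STAT match, and the Il13ra2 window held a GATA match on its other strand. The Il12b window held none of these letter strings. Over the 11 windows of called members the STAT motif was found in 1, the interferon response motif in 0, the NF-kB motif in 1 and the GATA motif in 4, and over all 32851 windows of the same length it was found in 8.3%, 8.56%, 3.94% and 11.2%, respectively. Il16 and Il1rl1 each have several of these windows, and every Il1rl1 window held the GATA motif, so the windows are not independent genes. A match describes the letters and not a bound site. Each motif was searched as 1 fixed letter string, so a window without a match may hold other forms of such a site.

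The other IL-12 subunit, p35, is encoded by Il12a. It was at 4.84, 4.73 and 4.27 CPM in NOD.B10 and at 7.39, 5.10 and 6.65 CPM in BL/10, without overlap but not past the threshold (log2 fold change -0.47, SE 0.18, adjusted p = 0.109, edgeR's quasi-likelihood test). The remaining IL-12 family subunits of the member list had few reads. Il23a, the p19 subunit of IL-23, was at 0 to 2 reads and Il27, the p28 subunit of IL-27, at 5 to 14 reads, and neither was tested.

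The IL-12 receptor pairs Il12rb1, which also serves IL-23, with Il12rb2, the signalling chain of activated T and NK cells. Il12rb2 was at 8.55, 7.37 and 6.86 CPM in NOD.B10 and at 3.96, 4.22 and 4.77 CPM in BL/10, and every NOD.B10 library was above every BL/10 library. The difference passed the test (7.59 ± 0.870 against 4.32 ± 0.413 CPM, log2 fold change 0.81, SE 0.16, adjusted p = 0.0128, edgeR's quasi-likelihood test). Il12rb1 was at 4.07 ± 0.251 CPM in NOD.B10 and 3.75 ± 0.476 CPM in BL/10 (adjusted p = 0.663, edgeR), with a 95% interval of the log2 fold change from -0.28 to 0.52. The ligand subunit Il12b and the receptor chain Il12rb2 were therefore called in opposite directions in the same spleens. Without NOD.B10 replicate 1 the log2 fold change of Il12rb2 was 0.72 (adjusted p = 0.0644), and in the libraries labelled 26 weeks it was 0.93 (adjusted p = 0.0759). Exons of Il12rb2 (chr6:67291318-67376188) overlap those of Serbp1.

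**Figure D2:**
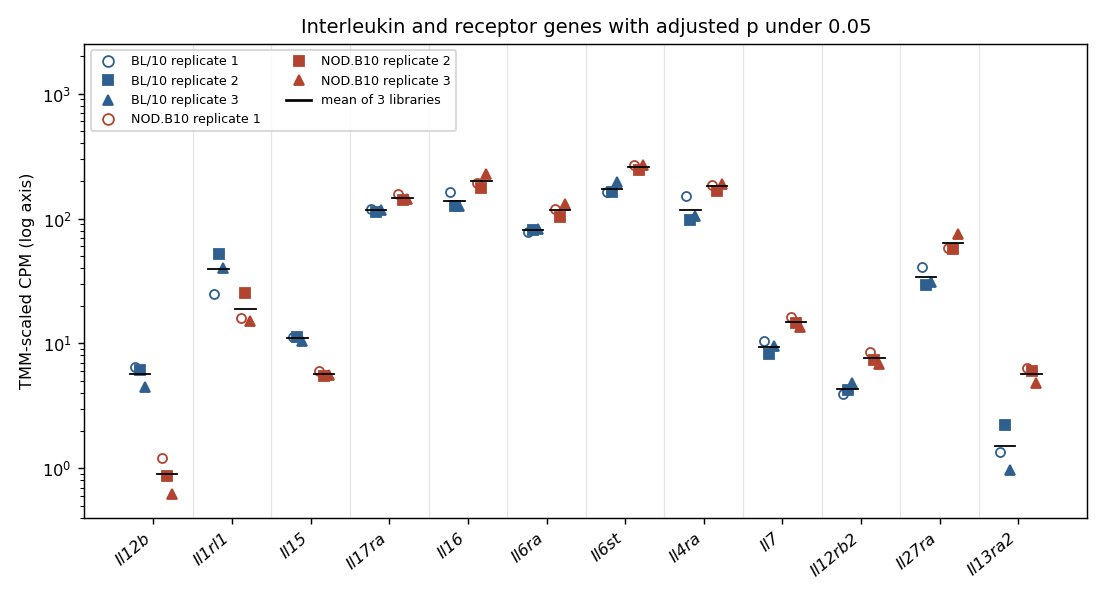
Levels (TMM-scaled CPM, log axis) of the 12 called members in each library, ordered along the x axis from the lowest to the highest fold change, with blue BL/10 and red NOD.B10 symbols by replicate and a line at the mean of 3 libraries. The strains are apart for every gene except Il1rl1, where NOD.B10 replicate 2 (25.3 CPM) lies above BL/10 replicate 1 (24.9 CPM).

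Higher levels in NOD.B10 were measured for gp130 and for receptor chains of IL-6 and IL-27. Il6st encodes gp130, the signalling chain shared by the receptors of IL-6, IL-11, IL-27 and related cytokines. It was at 267, 245 and 269.5 CPM in NOD.B10 and at 162, 163 and 195 CPM in BL/10, so the lowest NOD.B10 library exceeded the highest BL/10 library. The means were 261 ± 13.5 and 173 ± 18.7 CPM (log2 fold change 0.59, SE 0.11, adjusted p = 0.0109, edgeR's quasi-likelihood test). Without NOD.B10 replicate 1 the log2 fold change was 0.57 and the adjusted p was 0.0547. Il6st lies at chr13:112464070-112510086.

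Il6ra, the chain that binds IL-6, and Il27ra, which pairs with gp130 in the IL-27 receptor, were called in the same direction. For Il6ra the libraries were at 120.0, 103 and 131 CPM in NOD.B10 and at 77.8, 81.6 and 82.8 CPM in BL/10 (log2 fold change 0.55, SE 0.11, adjusted p = 0.0124, edgeR). For Il27ra they were at 57.8, 57.2 and 75.3 CPM in NOD.B10 and at 40.9, 29.1 and 31.1 CPM in BL/10 (log2 fold change 0.91, SE 0.16, adjusted p = 0.00914, edgeR). Neither gene showed overlap between the strains. Without NOD.B10 replicate 1 the log2 fold change of Il6ra was 0.54 (adjusted p = 0.058). In the libraries labelled 26 weeks, with 1 BL/10 library, it was 0.60 for Il6ra (adjusted p = 0.0892) and 0.63 for Il27ra (adjusted p = 0.114). Exons of Il27ra overlap those of Palm3 and exons of Il6ra those of Gm42809, and reads in overlapping exons may be given to either gene or to neither. Il6 itself, the ligand, was at 1 to 15 reads per library and was not tested.

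Not every chain of this group was higher. Il31ra, which lies next to Il6st (chr13:112522810-112580662) and pairs with the oncostatin M receptor in the IL-31 receptor, was at 1.14, 1.35 and 1.18 CPM in NOD.B10 and at 1.79, 2.01 and 2.56 CPM in BL/10. This difference, in the opposite direction to that of its neighbour, did not pass the threshold (log2 fold change -0.79, SE 0.23, adjusted p = 0.0522, edgeR), and without BL/10 replicate 1 it did (0.0336). Il11ra1, the IL-11 receptor chain, was at 13.3 CPM in NOD.B10 and 17.6 CPM in BL/10 on average (log2 fold change -0.40, SE 0.15, adjusted p = 0.100, edgeR). Its near-identical copy Il11ra2 was at 0 in all libraries, and how reads that fit both copies were assigned is not given in the sources used here. Exons of Il11ra1 also overlap those of Ccl27a.

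Among genes of the common gamma chain and IL-4/IL-13 group, the ligands Il15 and Il7 were called in opposite directions. IL-15 sustains NK cells and memory CD8 T cells and is presented by myeloid and stromal cells. Il15 was at 6.04, 5.47 and 5.62 CPM in NOD.B10 and at 11.2, 11.2 and 10.4 CPM in BL/10, with a narrow spread within each strain. The means of 5.71 ± 0.298 and 10.9 ± 0.475 CPM correspond to a 1.92-fold lower level in NOD.B10 (log2 fold change -0.94, SE 0.12, adjusted p = 0.00231, edgeR's quasi-likelihood test). Il15 (chr8:82331637-82403222) and Il12b were the called members with the smallest p-values.

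Il7, the stromal cytokine that keeps naive T cells alive and drives early lymphocyte growth, was at 16.3, 14.7 and 13.5 CPM in NOD.B10 and at 10.4, 8.25 and 9.55 CPM in BL/10. It was higher in each NOD.B10 library (14.8 ± 1.37 against 9.39 ± 1.07 CPM, log2 fold change 0.66, SE 0.13, adjusted p = 0.0146, edgeR). Without NOD.B10 replicate 1 its log2 fold change was 0.59 (adjusted p = 0.0672), and in the libraries labelled 26 weeks it was 0.51 (adjusted p = 0.159). Exons of Il7 (chr3:7569994-7613760) overlap those of Gm16685. The other tested ligand of the group, Il4, a cytokine of type 2 T cells, mast cells and basophils, was at 5, 12 and 12 reads in NOD.B10 and at 6, 14 and 23 reads in BL/10, and its strains overlapped.

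The largest rise among all tested members was that of Il13ra2. It encodes a receptor for IL-13 with a short intracellular tail that is regarded chiefly as a decoy. It was counted at 107, 97 and 85 reads (6.40, 5.96 and 4.78 CPM) in NOD.B10 and at 25, 33 and 17 reads (1.36, 2.21 and 0.966 CPM) in BL/10. All NOD.B10 libraries exceeded all BL/10 libraries (5.71 ± 0.839 against 1.51 ± 0.638 CPM, 3.81-fold, log2 fold change 1.93, SE 0.30, adjusted p = 0.00475, edgeR). The gene lies at chrX:147383476-147429192. Its ligand gene Il13 was at 0 or 1 read in each library.

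Il4ra, the chain common to the IL-4 and IL-13 receptors, was at 186, 166 and 191 CPM in NOD.B10 and at 151, 96.6 and 105 CPM in BL/10. The strains did not overlap, but BL/10 replicate 1 lay closer to the NOD.B10 libraries than to the other BL/10 libraries. The call was close to the threshold (log2 fold change 0.62, SE 0.17, adjusted p = 0.0441, edgeR), and without BL/10 replicate 1 the adjusted p was 0.0018. Without any other single library it was 0.0664 to 0.134, and in the libraries labelled 26 weeks the log2 fold change was 0.26 (adjusted p = 0.331). The partner of Il4ra in the type 2 receptor, Il13ra1, was at 37.9 ± 4.82 CPM in NOD.B10 and 37.1 ± 3.75 CPM in BL/10 (adjusted p = 0.883, edgeR).

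Il21r, the IL-21 receptor chain of B and T cells, is the next gene beyond Il4ra among the members (chr7:125603429-125633570, with Il4ra at chr7:125552120-125579474). It was at 123, 114 and 135 CPM in NOD.B10 and at 107, 67.5 and 73.3 CPM in BL/10, a pattern over the libraries like that of Il4ra. It did not pass the threshold (log2 fold change 0.58, SE 0.18, adjusted p = 0.0577, edgeR), and without BL/10 replicate 1 it did (adjusted p = 0.0022). Il21r and Il2rg were both called by DESeq2 (adjusted p = 0.0206 and 0.035), with no filter and with the replicate block, while in the libraries labelled 26 weeks their log2 fold changes were 0.21 and 0.25. Il2rg, the common gamma chain itself, was at 101, 90.0 and 122 CPM in NOD.B10 and at 87.9, 65.6 and 70.8 CPM in BL/10 (log2 fold change 0.48, SE 0.15, adjusted p = 0.0632, edgeR, and 0.0173 without BL/10 replicate 1). The strains did not overlap for either gene.

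The other receptor chains of the group were not called by edgeR with all 6 libraries. Il2rb, shared by the IL-2 and IL-15 receptors, was at 79.4 ± 9.38 CPM in NOD.B10 and 78.4 ± 8.45 CPM in BL/10, with a 95% interval of the log2 fold change from -0.26 to 0.29. Il15ra, which presents IL-15, was at 10.2 ± 0.213 and 9.10 ± 0.905 CPM, with an interval from -0.12 to 0.45. Il9r was at 91.1 ± 7.13 and 77.6 ± 16.9 CPM (adjusted p = 0.343, edgeR), with a log2 fold change of 0.23 that was 0.63 in the libraries labelled 26 weeks (adjusted p = 0.042) and 0.058 without BL/10 replicate 1. The lower Il15 level thus stood beside no call for either of its receptor chains Il2rb and Il15ra.

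In the IL-1 group, Il1rl1 was the 1 call among 13 tested members. It encodes ST2, the IL-33 receptor of mast cells, basophils, type 2 innate cells and regulatory T cells. It was at 15.8, 25.3 and 15.1 CPM in NOD.B10 and at 24.9, 52.2 and 40.1 CPM in BL/10, so that NOD.B10 replicate 2 and BL/10 replicate 1 overlapped. The means were 18.7 ± 5.70 and 39.1 ± 13.7 CPM (log2 fold change -1.06, SE 0.30, adjusted p = 0.0459, edgeR's quasi-likelihood test). With the libraries labelled 26 weeks alone, the log2 fold change was -0.41 and the adjusted p was 0.482. The adjusted p was 0.112 to 0.165 without NOD.B10 replicate 1 or 3 or BL/10 replicate 2 or 3. The ligand Il33, an alarmin of stromal cells, was at 15.0 ± 1.73 and 13.2 ± 1.99 CPM (adjusted p = 0.422, edgeR).

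Il1rl1 is 1 of 6 members that lie side by side on chromosome 1 from 40074079 to 40551705, in the order Il1r2, Il1r1, Il1rl2, Il1rl1, Il18r1 and Il18rap. The other 5 were not called. Il1r1, the signalling IL-1 receptor, was at 34.6 ± 0.952 CPM in NOD.B10 and 33.8 ± 1.22 CPM in BL/10 (95% interval of the log2 fold change -0.15 to 0.22), and Il18r1 was at 39.7 ± 1.64 and 36.9 ± 3.07 CPM (-0.11 to 0.32). Il18rap, the accessory chain of the IL-18 receptor, was at 31.6, 23.2 and 22.6 CPM in NOD.B10 and at 34.3, 42.4 and 31.9 CPM in BL/10. Its strains did not overlap, and its adjusted p was 0.0795 (log2 fold change -0.49, SE 0.16, edgeR) and 0.0472 without NOD.B10 replicate 1. Il1r2, a decoy for IL-1, and Il1rl2, the IL-36 receptor, overlapped between the strains.

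Il1rap, the accessory chain that the receptors of IL-1, IL-33 and IL-36 share, was at 21.8, 17.3 and 18.5 CPM in NOD.B10 and at 14.2, 15.8 and 10.97 CPM in BL/10. It did not pass the threshold (log2 fold change 0.50, SE 0.16, adjusted p = 0.0694, edgeR). Among the ligands and inhibitors, Il18 was at 46.3 ± 4.28 and 40.7 ± 3.00 CPM (95% interval of the log2 fold change -0.05 to 0.42) and its soluble inhibitor Il18bp at 46.1 ± 3.77 and 43.7 ± 2.87 CPM. Il1a was at 12.4 ± 3.06 and 12.2 ± 2.28 CPM, and the IL-1 receptor antagonist Il1rn at 11.4 ± 1.56 and 12.8 ± 1.03 CPM. Il1f9, which encodes IL-36 gamma, had the widest spread relative to its mean in this group, from 2.75 to 9.81 CPM within NOD.B10.

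In the IL-17 group, Il17ra, the receptor chain that IL-17A, IL-17F and IL-25 share, was at 157, 141 and 142 CPM in NOD.B10 and at 120.2, 113 and 117 CPM in BL/10. The difference was small but larger than the spread within either strain (147 ± 8.96 against 117 ± 3.79 CPM, log2 fold change 0.33, SE 0.09, adjusted p = 0.0368, edgeR). The call rested on each NOD.B10 library and on BL/10 replicates 2 and 3, without any of which the adjusted p was 0.0647 to 0.152. Il17rb, the chain that binds IL-25, was at 0.957, 0.553 and 1.07 CPM in NOD.B10 and at 1.57, 1.94 and 1.42 CPM in BL/10 (log2 fold change -0.92, SE 0.29, adjusted p = 0.0686, edgeR). Il17rc, Il17rd and Il17re showed overlap. The ligands were hardly read at all. Il17a, Il17b and Il25 were at 0 in all 6 libraries, Il17c at 0 to 1, Il17f at 0 to 5 and Il17d at 0 to 10 reads.

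The tested IL-3 and IL-5 receptor chains, Il3ra and Il5ra, pair with the common beta chain and serve basophils, eosinophils and their precursors, among other cells. Il5ra was at 11.005, 12.3 and 8.82 CPM in NOD.B10 and at 30.6, 16.6 and 13.5 CPM in BL/10, with BL/10 replicate 1 far above the others. Its log2 fold change of -0.92 (SE 0.30, adjusted p = 0.0733, edgeR) was -0.50 without that library and -1.52 in the libraries labelled 26 weeks (adjusted p = 0.00623). Il3ra was at 7.42, 6.88 and 8.77 CPM in NOD.B10 and at 9.88, 10.1 and 11.5 CPM in BL/10 (log2 fold change -0.45, SE 0.14, adjusted p = 0.0674, edgeR). The quasi-likelihood test of edgeR called 0 of these 2 genes, both had an unadjusted p under 0.05, and DESeq2 called Il5ra. Without BL/10 replicate 3, edgeR called Il5ra too (adjusted p = 0.0488). The ligands Il3 and Il5 were at 0 in every library.

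Of the 5 tested members of the IL-10 group none was called by edgeR, none had an unadjusted p under 0.05 and none was called by DESeq2. Il10ra, the ligand-binding chain of the IL-10 receptor, was at 154 ± 19.7 CPM in NOD.B10 and 159 ± 22.0 CPM in BL/10, with a 95% interval of the log2 fold change from -0.36 to 0.27. Il10rb, shared with the receptors of IL-22 and the lambda interferons, was at 67.4 ± 5.16 and 70.9 ± 5.04 CPM. Il10 was at 15, 11 and 12 reads in NOD.B10 and at 15, 5 and 9 reads in BL/10, and the 95% interval of its log2 fold change reached from -0.44 to 1.24.

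Il16 was the remaining call. Its product is an attractant for CD4+ cells that is cut from a precursor abundant in lymphocytes. It was at 194, 176 and 229 CPM in NOD.B10 and at 163, 125 and 127 CPM in BL/10, without overlap (log2 fold change 0.53, SE 0.15, adjusted p = 0.0434, edgeR). Without NOD.B10 replicate 1 or 3 or BL/10 replicate 2 or 3 the adjusted p was 0.117 to 0.135, and in the libraries labelled 26 weeks the log2 fold change was 0.29 (adjusted p = 0.391). Exons of Il16 (chr7:83642825-83745726) overlap those of Stard5 and 2310044K18Rik. In all, 6 of the 12 called members and 13 of the 48 tested ones have exons that overlap another gene. Il34, a ligand of the CSF1 receptor, was at 14.8 ± 3.58 and 11.5 ± 2.94 CPM (adjusted p = 0.32, edgeR).

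The levels of different genes were compared per exon length and library size (RPKM, on TMM-scaled libraries). Il18 had the highest level of the members in both strains, at 64.9 ± 6.0 RPKM in NOD.B10 and 57.03 ± 4.21 RPKM in BL/10, followed in both by Il10ra at 44.1 ± 5.64 and 45.5 ± 6.29 RPKM, whose spread in NOD.B10 reached the level of Il2rg at 43.7 RPKM. In BL/10 Il2rg was at 31.3 RPKM and Il18bp at 31.2 RPKM. Most called receptor chains stood among the more abundant members, such as Il4ra at 30.1 and 19.6 RPKM, Il27ra at 23.9 and 12.7 RPKM and Il6st at 23.5 and 15.6 RPKM in NOD.B10 and BL/10, respectively. Among the called ligands Il16 was at 25.4 and 17.6 RPKM, level with these receptor chains, while Il12b (0.453 and 2.91 RPKM), Il15 (2.99 and 5.74 RPKM) and Il7 (2.62 and 1.66 RPKM) and the decoy Il13ra2 (2.50 and 0.663 RPKM) were low. Of the 30 tested receptor chains, 12 exceeded 10 RPKM in NOD.B10 and 11 in BL/10, and of the 12 tested ligands 2 did so in either strain.

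The mean of Il12a stood above that of Il12b in both strains. The gap was wider in NOD.B10 (2.71 ± 0.179 against 0.453 ± 0.148 RPKM) than in BL/10 (3.75 ± 0.687 against 2.91 ± 0.551 RPKM), where their spreads overlapped. Of the receptor chains, Il12rb2 was at 2.00 RPKM and Il12rb1 at 1.42 RPKM in NOD.B10. In BL/10 they were at 1.14 and 1.30 RPKM, a difference within their spread. These levels are descriptions without a test.

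**Figure D3:**
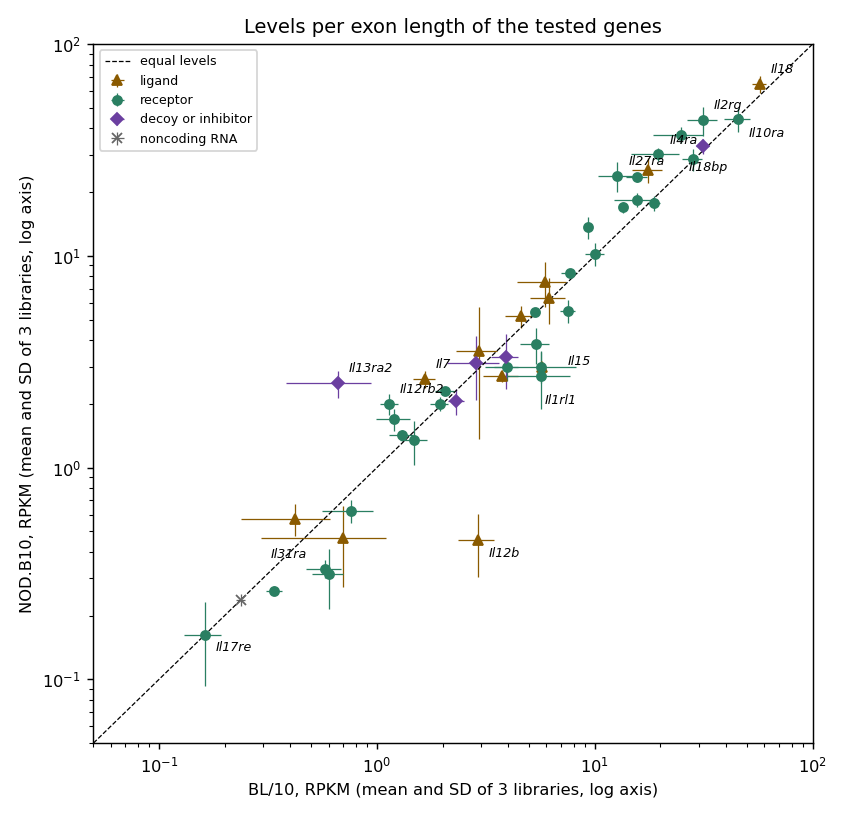
Mean level of each tested member in BL/10 (x axis) and NOD.B10 (y axis) in RPKM on log axes, with bars of 1 SD over 3 libraries, symbols by role and a dashed line of equal levels. Il12b (0.453 against 2.91 RPKM) lies below the line and Il13ra2 (2.50 against 0.663 RPKM) above it, while Il18 stands at the top right.

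The 30 members that were not tested comprised 22 ligands, 6 receptor chains, 1 inhibitor and the enzyme Il4i1. Of these, 13 were at 0 in all 6 libraries (Il3, Il5, Il9, Il17a, Il17b, Il20, Il22, Il25, Il31, Il1f5, Il1f6, Il1f10 and Il11ra2), which at the floor of 3 counts allows up to 0.163 to 0.201 CPM per library. A further 9 did not exceed 3 reads in any library (Il11, Il13, Il17c, Il19, Il23a, Il24, Il1f8, Il1rapl1 and Il1rapl2). The other 8 (Il6, Il17d, Il17f, Il20ra, Il22ra1, Il23r, Il27 and Il4i1) reached at most 17 reads or 0.966 CPM. Il6 was at 7, 1 and 4 reads in NOD.B10 and at 11, 8 and 15 reads in BL/10, without overlap. Among the untested members Il23a (lower in NOD.B10), Il20ra and Il4i1 (both higher) did not overlap either, beside 38% of all tested genes. With no filter beyond 1 count, edgeR called none of the untested members that had reads.

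A list of 17 partner genes, which hold further shared chains, adaptors and kinases of these receptors, was tested in the same fit. It gave 3 calls (17.6%, beside 17.3% of all tested genes), all higher in NOD.B10, and a median log2 fold change of 0.02. Jak3, the kinase bound to the common gamma chain, was at 64.5, 60.6 and 62.8 CPM in NOD.B10 and at 47.1, 39.0 and 39.7 CPM in BL/10, without overlap (log2 fold change 0.58, SE 0.10, adjusted p = 0.00736, edgeR). The other calls were Sigirr, an inhibitory member of the IL-1 receptor family (log2 fold change 0.56, SE 0.14, adjusted p = 0.0302, edgeR), and Osmr, the oncostatin M receptor chain that pairs with gp130 or with Il31ra (log2 fold change 0.48, SE 0.13, adjusted p = 0.0418, edgeR). Csf2rb2, the beta chain of the mouse IL-3 receptor, had a log2 fold change of -0.44 (adjusted p = 0.0671, edgeR). With all 6 libraries no partner gene was called lower by edgeR, while DESeq2 called 1. Without BL/10 replicate 1, edgeR called Csf2rb2 lower (adjusted p = 0.0298). Jak1, Traf3ip2 and Traf6 had an unadjusted p under 0.05 without a call by edgeR. DESeq2 called Jak1 (adjusted p = 0.0387), and Traf3ip2 was called by edgeR without BL/10 replicate 1 (adjusted p = 0.0105). In the libraries labelled 26 weeks the calls of Jak3, Sigirr and Osmr did not remain, where fewer of all tested genes were called too. The calls of Sigirr and Osmr were each lost without 5 of the 6 libraries in turn.

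Markers of the cell types that carry these genes moved with the strain as well. In bulk RNA, fewer cells of a type and less RNA per cell cannot be told apart. Of 10 listed T cell markers 8 were called higher in NOD.B10, and the list summed to 868 to 1145 CPM in NOD.B10 and 406 to 529 CPM in BL/10. The remaining T cell markers, Cd8a and Cd8b1, were not called (log2 fold changes 0.16 and -0.40). Of 6 plasma cell markers 5 were called higher, with sums of 3237 to 3734 CPM and 2042 to 2598 CPM. These lists rose with Il4ra, Il6st, Il6ra, Il27ra, Il12rb2, Il16 and Jak3, and their part in these results was not tested. Il7, described above as a stromal cytokine, was higher too. Of 5 fibroblast and stroma markers 0 were called, and of 4 endothelial markers 2 were called higher. Their part in the Il7 difference was not tested.

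Markers of granulocytes moved the other way. Of 10 neutrophil markers 9 were called lower in NOD.B10, with sums of 1897 to 2284 CPM against 5536 to 11453 CPM in BL/10. The remaining neutrophil marker, Cxcr2, was higher without a call (log2 fold change 0.58, adjusted p = 0.106, edgeR). All 6 mast cell and basophil markers were called lower (11.5 to 15.4 against 37.7 to 54.9 CPM), and 3 of 4 eosinophil markers were (150.1 to 192 against 582 to 1069 CPM). They moved with Il1rl1, Il5ra and Il3ra, for which mast cells, basophils and eosinophils are known carriers, and their part in these values was not tested. Within BL/10, Il5ra was highest in replicate 1, where the eosinophil sum (582 CPM) and the mast cell and basophil sum (37.7 CPM) were lowest. The B cell sum (4239 CPM) was highest in that library, and the part of any of these cells in the Il5ra values was not tested. None of 5 dendritic cell markers was called by edgeR (2 had an unadjusted p under 0.05), and they summed to 194 to 212 CPM in NOD.B10 and 186 to 205 CPM in BL/10. These sums overlapped between the strains, and their part in the Il12b difference was not tested. Of 7 macrophage markers 1 was called higher and 2 lower (2673 to 3218 against 2969 to 3315 CPM). Calls were also made for 1 NK cell marker each way of 6, for 2 of 4 endothelial markers (higher) and for all 6 pancreatic acinar markers (lower). None of 5 fibroblast and stroma markers and none of 5 erythroid markers was called by edgeR, where 1 and 0 had an unadjusted p under 0.05. No listed marker was at 0 in every library.

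**Figure D4:**
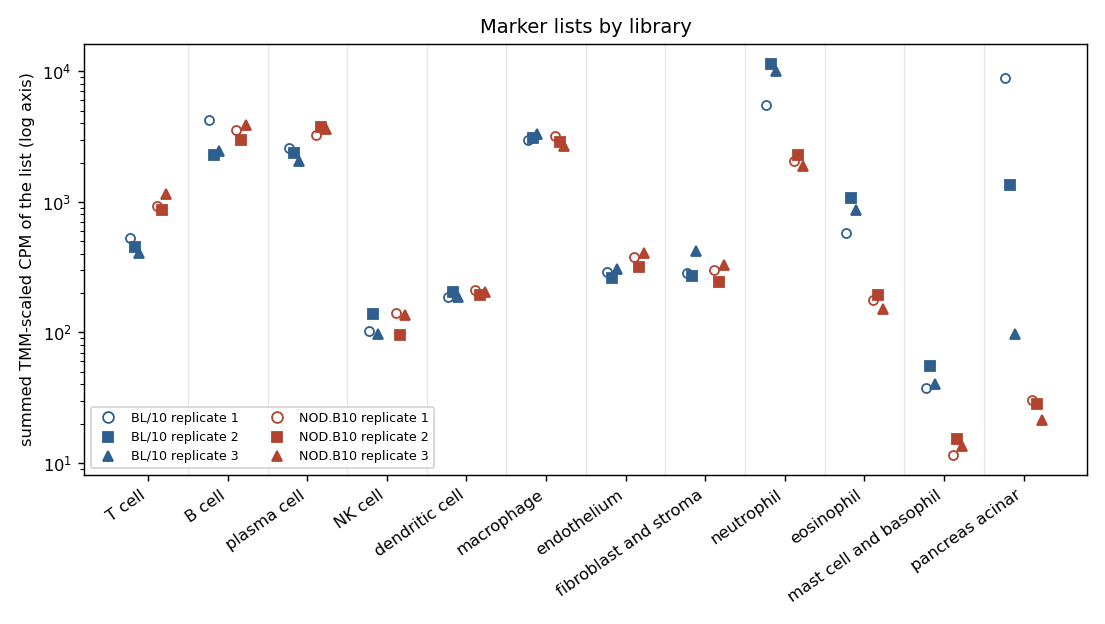
Summed CPM of 12 lists of cell type markers (x axis) in the 6 libraries on a log axis, with blue BL/10 and red NOD.B10 symbols by replicate. The T cell and plasma cell sums of NOD.B10 lie above all of BL/10, the neutrophil, eosinophil and mast cell and basophil sums lie below, and the dendritic cell sums overlap.

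The B cell markers summed to 3536, 2990 and 3879 CPM in NOD.B10 and to 4239, 2291 and 2432.3 CPM in BL/10, where replicate 1 was the highest of all 6 libraries and replicates 2 and 3 were the lowest. Their median log2 fold change was 0.28, and 0 of 6 were called by edgeR or had an unadjusted p under 0.05. BL/10 replicate 1 was also the highest BL/10 library for 7 of the 12 called members, replicate 2 for 2 and replicate 3 for 3. This count was not made over all tested genes, so it is not read as a trait of the members. Of the 7, Il4ra, Il7, Il16, Il17ra and Il27ra were higher in NOD.B10, and Il12b and Il15 were lower. Replicate 1 was also the highest BL/10 library for Il21r, Il2rg and Il5ra. It was also the BL/10 library labelled 26 weeks and the one with the most pancreatic acinar reads. These features cannot be told apart in 1 library.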

How the data were processed

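RNA-seq was done by the authors on spleens of 3 females per strain, NOD.B10 and BL/10, with single-end reads. They deposited a table of unnormalized counts of reads per gene, made with featureCounts 1.5.1 from exons as annotated by Ensembl (release 84, GRCm38), per the file headers. The submitters' processing notes name HISAT2 2.0.5 as aligner, whereas the paper names Tophat2. Whether strand was used in counting is not given in the sources used here. Gene lengths and coordinates came from the same table and symbols from GENCODE M21 (47224 of 47729 identifiers matched).

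Counts were analysed in R 4.3.3 with edgeR 4.0.16, with filterByExpr (15330 genes kept), TMM and the quasi-likelihood test, BL/10 as reference and Benjamini-Hochberg adjustment over all tested genes. Standard errors were computed from the log2 fold change and the F statistic. CPM and RPKM are TMM-scaled, and means and SDs are over 3 libraries. Values are given for the members called at an adjusted p under 0.05, those with an unadjusted p under 0.05, and further members of the same families. The members, the partner genes and the marker lists were chosen with earlier results of these data known. An exact permutation test of 1 gene cannot go below p = 0.1 with 3 libraries against 3, so it was not used. DESeq2 1.42.0, other scalings and filters, a replicate block, stricter thresholds, the libraries labelled 26 weeks alone and leaving out each library were alternatives. The fit was tested on simulated data. Intervals cover the spread between libraries, and floors cover counting error only.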

Additional observations from a re-analysis of the deposited data

How the results depend on the processing

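The members called numbered 12 (9 higher and 3 lower in NOD.B10). Il12b, Il15 and Il13ra2 were called in all 14 alternatives that refit the data. RLE and upper-quartile scaling gave 12 calls each, a fit without hemoglobin and immunoglobulin genes 13, no filter 14, at least 10 counts in every library 12, and DESeq2 15. These scalings moved the median of all genes by no more than 0.03 on the log2 scale. Leaving out each library in turn gave 5 to 15 calls (2 to 11 higher). The 5 calls came without NOD.B10 replicate 1, where 8.12% of all tested genes were called. The 15 calls came without the first BL/10 replicate, where 26.3% of all tested genes were called. The main fit called 17.3% of all tested genes and DESeq2 17%. The fit with no filter called 11.5%, and that with at least 10 counts in every library 14.8%. The libraries labelled 26 weeks alone, with 1 BL/10 library assumed to vary like NOD.B10, gave 6 calls (3 higher), of which 4 were among the 12. An adjusted p under 0.01 left 4 (2 higher), and an absolute log2 fold change of at least 1 left 3 (1 higher). Il17ra and Il4ra passed in 7 of 14 alternatives and Il16 and Il1rl1 in 9.

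Partner genes went from 3 calls to 5 with DESeq2 (1 lower) and to 1 to 4 on leaving out a library (1 to 3 higher, 0 to 1 lower). They went to 1 at an adjusted p under 0.01 and to 0 with a log2 fold change of at least 1. In the libraries labelled 26 weeks fewer partner genes were called too. The replicate block gave 15 members and 2 partner genes, with 18.8% of all tested genes called. The numbers do not pair the libraries: deviations from the strain means of same-numbered libraries correlated at 0.05, 0.25 and -0.08 across genes, and not every library correlated best with its own number. No gene with an unadjusted p under 0.05 changed sign, while 20 others did in 45 of 907 comparisons over genes and alternatives. Genes near the floor of 3 counts are limited by depth.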

Other observations

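Among members below the threshold, Il1f9 was spread more widely within NOD.B10 (9.81, 4.97 and 2.75 CPM) than between the strain means of 5.85 and 4.82 CPM. Il22ra2, a soluble inhibitor of IL-22, was at 10.2, 8.23 and 5.001 CPM in NOD.B10 and at 9.23, 6.77 and 5.46 CPM in BL/10. It was also spread more widely within each strain than between the strain means of 7.80 and 7.15 CPM.

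Of the 22 members whose unadjusted p from edgeR was under 0.05, BL/10 replicate 1 was the control library nearest to the NOD.B10 mean for 10, replicate 2 for 3 and replicate 3 for 9. The same count was not made over all tested genes. The difference between the ages in the labels falls between replicate 1 and the other BL/10 libraries. The part of age was not tested.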
